A study of Mus musculus with 12 samples.

Results

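The genes described here are 41 enzymes of glycolysis, the pentose phosphate pathway, the pyruvate dehydrogenase complex and the tricarboxylic acid (TCA) cycle, followed across RNA bound to ribosomes at the endoplasmic reticulum (ER) and whole-cell RNA of mouse embryonic stem cells. They were taken as a list of gene symbols matched to Ensembl gene IDs, and all 41 were found among the 55416 IDs of the deposited count tables. Of these, 26 encode cytosolic enzymes (16 of glycolysis, 7 of the pentose phosphate pathway and the cytosolic Aco1, Idh1 and Mdh1) and 15 encode enzymes of the mitochondrial matrix (4 of the pyruvate dehydrogenase complex and 11 of the TCA cycle). All 41 passed the filter on low counts, which left 17702 genes for testing.

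All libraries came from Rpl31-FTA E14Tg2a.4 mESCs, a mouse embryonic stem cell line whose large-subunit ribosomal protein Rpl31 carries a FLAG-TEV-AviTag. ALIBi, a system that biotinylates tagged ribosomes close to a chosen place in the cell, was targeted to the ER, the labelled ribosomes were affinity-purified, and their poly-A RNA was sequenced. There were 4 groups of 3 biological replicates: RNA of ER-labelled ribosomes from cells given Lsg1 siRNA, the same from cells given scramble siRNA, and the whole-cell RNA of each, which was the input from the same lysates. Lsg1 is a GTPase that acts late in the maturation of the large ribosomal subunit, and every group, controls included, carried the tagged Rpl31. Ribosomes labelled elsewhere in the cell were not analysed here, so location at the ER and overall loading with ribosomes cannot be told apart in a ratio of ER-bound to whole-cell RNA.

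Glycolysis splits glucose to pyruvate in the cytosol, and the pentose phosphate pathway branches from its first intermediate to make NADPH and ribose. Pyruvate that enters mitochondria is turned into acetyl-CoA by the pyruvate dehydrogenase complex and oxidised in the TCA cycle. All the matrix enzymes described here are encoded in the nucleus and made by cytoplasmic ribosomes, most of them with an N-terminal targeting sequence rich in arginine and poor in acidic residues. Pluripotent stem cells are known for high glycolytic flux, and mRNAs of secreted and membrane proteins are the classic clients of ribosomes on the ER.

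The compartments differ in their first codons. The first 90 bases of the coding sequence are shown for the malate dehydrogenases and the NADP-dependent isocitrate dehydrogenases, pairs of enzymes that catalyse the same reaction in the matrix (Mdh2, Idh2) and in the cytosol (Mdh1, Idh1). They come from GENCODE M21 transcripts on GRCm38, 5′ to 3′ on the coding strand, with in-frame arginine codons in capitals. The coding sequence starts at chromosome 5 position 135778736 on the forward strand for Mdh2, and on the reverse strand at chromosome 11 position 21571732 for Mdh1, chromosome 7 position 80115276 for Idh2 and chromosome 1 position 65175352 for Idh1.
Mdh2: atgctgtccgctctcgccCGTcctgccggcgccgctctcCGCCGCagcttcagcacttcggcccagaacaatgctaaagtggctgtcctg
Mdh1: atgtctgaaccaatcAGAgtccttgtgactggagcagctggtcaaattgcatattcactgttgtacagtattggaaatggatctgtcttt
Idh2: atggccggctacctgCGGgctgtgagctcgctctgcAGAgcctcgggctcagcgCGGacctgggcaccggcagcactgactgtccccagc
Idh1: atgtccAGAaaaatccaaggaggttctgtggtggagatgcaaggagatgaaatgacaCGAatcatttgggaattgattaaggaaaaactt
In these 30 codons Mdh2 and Idh2 each held 3 arginine codons and 0 codons for acidic residues. Mdh1 held 1 arginine and 1 acidic codon, and Idh1 held 2 arginine and 5 acidic codons. Over the 15 matrix enzymes, basic codons (arginine and lysine) outnumbered acidic ones (aspartate and glutamate) by 2 to 7, with a median of 4, and 12 had no acidic codon. Over the 26 cytosolic enzymes the difference ran from -4 to 4 with a median of 0, and only Rpia, ribose 5-phosphate isomerase, had no acidic codon.

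Each library held 38092178 to 56522114 reads assigned to genes. The 8 embryonic stem cell markers, Pou5f1, Sox2 and Nanog among them, summed to 9615 to 10208 CPM (edgeR's standard unit, a gene's reads over the library's total in genes after TMM scaling) on ER-labelled ribosomes with Lsg1 siRNA, 9786 to 10512 CPM there with scramble siRNA, 7549.6 to 7746 CPM in whole-cell RNA with Lsg1 siRNA and 7614 to 7727 CPM there with scramble siRNA. The 6 feeder or fibroblast markers summed to 45.4 to 55.8 CPM in the ER-bound libraries and 24.9 to 27.9 CPM in the whole-cell libraries; most of this was Thy1, which alone reached 10 CPM, and Dcn and Postn were at or near 0. The 5 primitive endoderm markers summed to 6.64 to 8.08 CPM over all libraries. A single unnamed gene took 18595 CPM, before TMM scaling, in replicate 3 of ER-bound scramble RNA and 14888 CPM in replicate 3 of whole-cell Lsg1 RNA, against 1158 to 3991 CPM in the other 10 libraries, so these 2 libraries stand apart. Lsg1, the siRNA's target, stood at 35.4, 42.5 and 52.5 CPM on ER-labelled ribosomes with Lsg1 siRNA and at 142.5, 149 and 151 CPM there with scramble siRNA. Its whole-cell values were 83.5, 96.7 and 114 CPM with Lsg1 siRNA and 136, 144 and 149 CPM with scramble siRNA, so that within each fraction every Lsg1 siRNA library lay below every scramble library. The difference in Lsg1 passed on ER-labelled ribosomes (log2 fold -1.77, edgeR adjusted p = 6.3e-08) and did not pass in whole-cell RNA (log2 fold -0.55, edgeR adjusted p = 0.245).

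Few central carbon enzymes of either compartment were enriched on ER-labelled ribosomes over whole-cell RNA, and many were depleted there. In scramble cells, 2 of the 41 were higher on ER-labelled ribosomes (Tkt and Idh3b), 21 were lower and 18 did not pass, by the quasi-likelihood F-test of edgeR at an adjusted p of 0.05 (Benjamini-Hochberg over all 17702 genes). Over all tested genes, 29.8% were called higher and 29.1% lower in this comparison, 58.9% in all. In Lsg1 siRNA cells, the same 2 enzymes were higher, 29 were lower and 10 did not pass, against 30.6% of all tested genes called higher and 29.8% lower, 60.3% in all. The 21 enzymes called lower in scramble cells were all called lower in Lsg1 siRNA cells, which share no library with them. Both comparisons came from a single fit with shared scaling and a shared estimate of the spread, so these calls are not independent. The median log2 fold of the 41 was -0.14 in Lsg1 siRNA cells and -0.095 in scramble cells, where the medians of all tested genes were 0.023 and 0.030. For the level within a single fraction of such bulk RNA, fewer cells with a transcript and less of it per cell cannot be told apart. The ratios compare fractions of the same lysates.

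**Figure D1:**
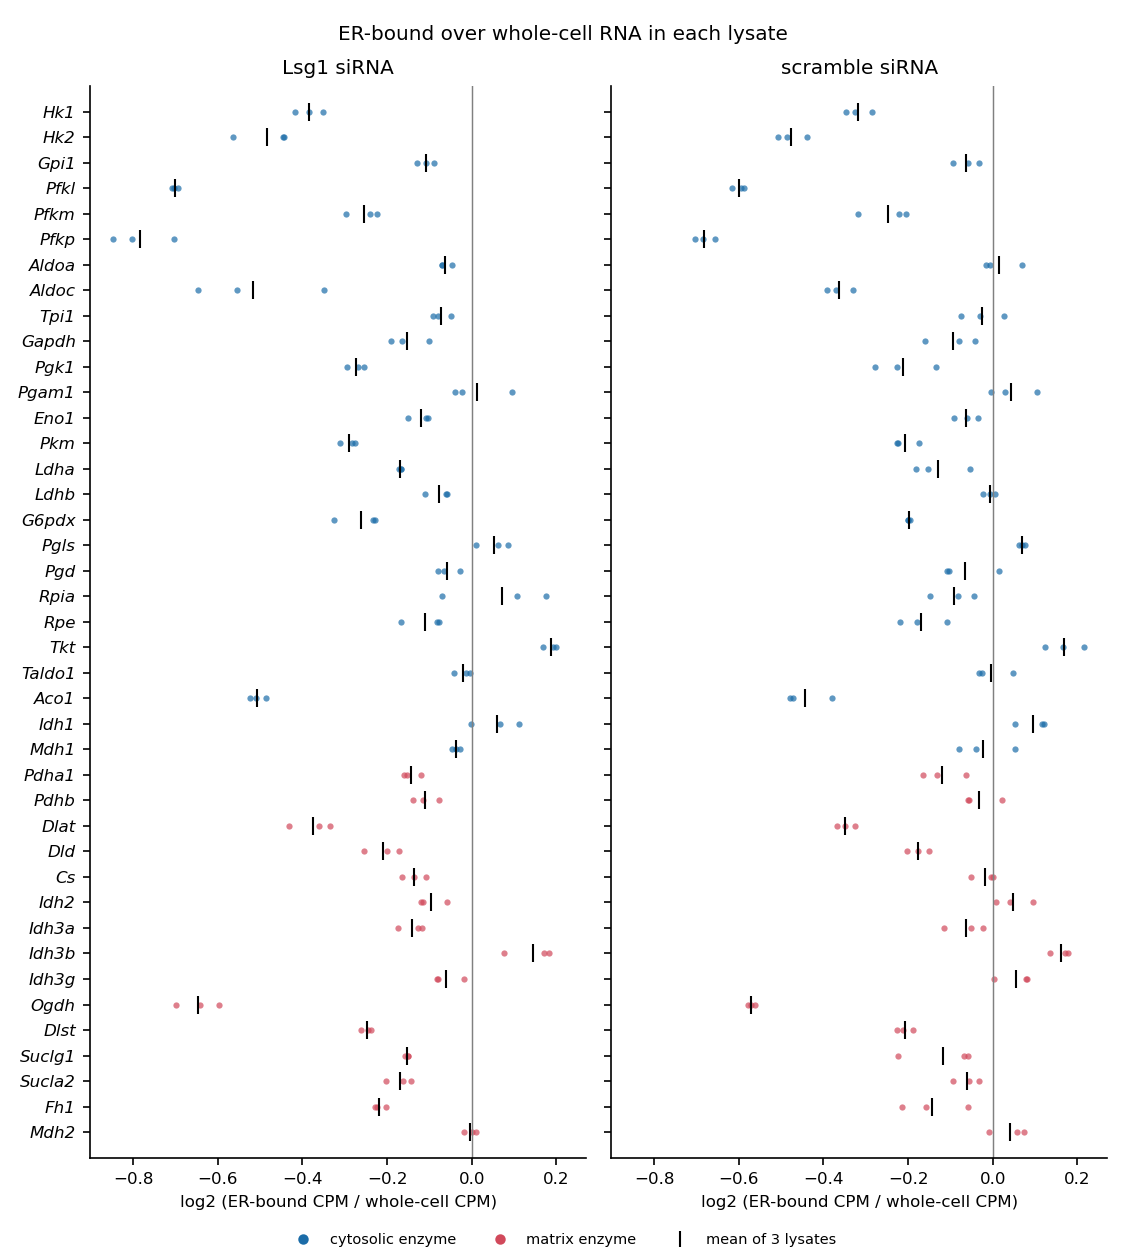
Log2 ratio of ER-bound to whole-cell CPM for the 41 enzymes (rows) in each of the 3 lysates (points) with Lsg1 siRNA (left) and scramble siRNA (right); the black bar is the mean of the 3 and the colour gives the compartment. Pfkp, Pfkl and Ogdh lie farthest to the left, followed by Aldoc, Aco1 and Hk2 in varying order, and Tkt and Idh3b lie right of 0 in all 6 lysates.

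The lowest ratios among the 41 were those of 2 phosphofructokinases of glycolysis, Pfkp and Pfkl. Of the pathway's 16 enzymes, 0 were higher in either siRNA group, while 14 were lower in Lsg1 siRNA cells and 11 in scramble cells, with median log2 folds of -0.21 and -0.17. Pfkl (ENSMUSG00000020277.11), the liver-type phosphofructokinase of the committed step, had 249, 248 and 252 CPM on ER-labelled ribosomes with Lsg1 siRNA and 271, 263 and 276 CPM there with scramble siRNA. In whole-cell RNA it had 404, 404 and 412 CPM with Lsg1 siRNA and 408, 404 and 417 CPM with scramble siRNA. The ER-bound and whole-cell libraries did not overlap, and the log2 folds were -0.70 (SE 0.026; edgeR, adjusted p = 2.4e-13) in Lsg1 siRNA cells and -0.60 (SE 0.026, edgeR adjusted p = 1.9e-12) in scramble cells.

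The platelet-type phosphofructokinase Pfkp (ENSMUSG00000021196.15) had 228, 217 and 227 CPM on ER-labelled ribosomes with Lsg1 siRNA and 248, 253 and 255 CPM there with scramble siRNA. Its whole-cell level was 410.3, 379 and 369 CPM with Lsg1 siRNA and 403, 407 and 402 CPM with scramble siRNA. With log2 folds of -0.79 (SE 0.035) and -0.68 (SE 0.035) in Lsg1 siRNA and scramble cells, it was the enzyme with the lowest ratio among the 41 in both. The muscle-type Pfkm, far less abundant in these cells, fell less, with log2 folds of -0.26 (SE 0.035) and -0.25 (SE 0.035). Hk2 (ENSMUSG00000000628.11), a hexokinase that phosphorylates glucose and can dock on the outer mitochondrial membrane, had 178, 171 and 166 CPM on ER-labelled ribosomes with Lsg1 siRNA and 177, 177 and 177 CPM there with scramble siRNA. Its whole-cell values of 242, 234 and 246 CPM with Lsg1 siRNA and 252, 239.7 and 248 CPM with scramble siRNA all lay higher, and the log2 folds were -0.49 and -0.48 (SE 0.032 each, edgeR adjusted p = 3e-10 and 4e-10). Hk1, the second hexokinase among the 41, fell too, with log2 folds of -0.39 and -0.32.

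The other glycolytic enzymes ranged from the rare aldolase Aldoc, below Hk2 in Lsg1 siRNA cells, to several that did not pass. Gapdh (ENSMUSG00000057666.19), which oxidises glyceraldehyde 3-phosphate, had 3209, 3338 and 3325 CPM on ER-labelled ribosomes with Lsg1 siRNA and 3413, 3467 and 3448 CPM there with scramble siRNA. In whole-cell RNA it had 3663, 3583 and 3730.3 CPM with Lsg1 siRNA and 3512, 3664 and 3855 CPM with scramble siRNA. It fell by 0.15 (SE 0.028, edgeR adjusted p = 0.00011) in Lsg1 siRNA cells and by 0.095 on the log2 scale (SE 0.028, edgeR adjusted p = 0.00653) in scramble cells, where scaling by library totals brought the log2 fold to -0.017 and ended the call. Pgk1, which makes ATP from 1,3-bisphosphoglycerate, fell by 0.27 and 0.21, the pyruvate kinase Pkm by 0.29 and 0.21, and the lactate dehydrogenase Ldha by 0.17 and 0.13, each on the log2 scale in Lsg1 siRNA and scramble cells. With library totals Ldha in scramble cells came to -0.052 and no longer passed. The minor aldolase Aldoc fell by 0.53 and 0.38, at 11.5 to 17.4 CPM in the group means. Gpi1, glucose 6-phosphate isomerase, was called in scramble cells at -0.062 (edgeR adjusted p = 0.0426), a call that ended under 14 of 22 alternatives and turned to 0.016 with library totals. The log2 folds of the triose phosphate isomerase Tpi1 (-0.073 and -0.026), the aldolase Aldoa (-0.063 and 0.016) and the enolase Eno1 (-0.12 and -0.063) passed in Lsg1 siRNA cells and not in scramble cells. With library totals these 3 calls ended, at 0.015 for Tpi1, 0.026 for Aldoa and -0.032 for Eno1, as did that of Gpi1 in Lsg1 siRNA cells (-0.11, or -0.020 with library totals). The call of Aldoa held under 17 of 22 alternatives, that of Tpi1 under 20, and those of Eno1 and Gpi1 under 21 each. The log2 folds of the phosphoglycerate mutase Pgam1 (0.011 and 0.042) and the lactate dehydrogenase Ldhb (-0.076 and -0.0071) passed in neither. With the lysate as a block, Eno1 in scramble cells and Ldhb in Lsg1 siRNA cells passed as lower (edgeR adjusted p = 0.0109 and 0.0225). Counting the block, they passed as lower under 9 and 12 of 22 alternatives. Eno1 shares nearly its whole sequence with Eno1b, counted at 432 to 478 CPM before TMM scaling, so its value is uncertain.

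The pentose phosphate pathway held 1 enzyme that rose. Tkt (ENSMUSG00000021957.8), the transketolase that links the pathway back to glycolysis, had 657, 662 and 661 CPM on ER-labelled ribosomes with Lsg1 siRNA and 665, 645 and 656 CPM there with scramble siRNA. In whole-cell RNA it had 575, 577 and 588 CPM with Lsg1 siRNA and 572, 575 and 602 CPM with scramble siRNA, below every ER-bound library. Its log2 folds of 0.19 (SE 0.025, edgeR adjusted p = 4e-06) in Lsg1 siRNA cells and 0.17 (SE 0.025, edgeR adjusted p = 1.3e-05) in scramble cells came to 0.052 and 0.036 and no longer passed in a fit with an offset for the trend of counts with GC content and length.

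G6pdx (ENSMUSG00000031400.11), glucose 6-phosphate dehydrogenase, which makes the first NADPH of the pathway, went the other way. It had 74.9, 78.5 and 79.6 CPM on ER-labelled ribosomes with Lsg1 siRNA and 79.0, 80.5 and 82.8 CPM there with scramble siRNA, against 94.0, 92.3 and 93.3 CPM in whole-cell RNA with Lsg1 siRNA and 90.5, 92.5 and 95.2 CPM there with scramble siRNA. The fractions did not overlap, and the log2 folds were -0.26 and -0.20 (SE 0.034 each, edgeR adjusted p = 2.3e-06 and 5.5e-05). Rpe (ENSMUSG00000026005.16), ribulose 5-phosphate epimerase, had 64.0, 65.6 and 65.4 CPM on ER-labelled ribosomes with Lsg1 siRNA and 61.1, 61.7 and 61.6 CPM there with scramble siRNA. Its whole-cell values were 71.9, 69.5 and 69.0 CPM with Lsg1 siRNA and 65.9, 69.9 and 71.9 CPM with scramble siRNA. All whole-cell values lay above the ER-bound ones of the same siRNA, with log2 folds of -0.11 and -0.17 (SE 0.035 each, edgeR adjusted p = 0.0114 and 0.00036), which turned to 0.10 and 0.038 in the fit with the offset for GC content and length. The phosphogluconate dehydrogenase Pgd (-0.058 and -0.066), the lactonase Pgls (0.053 and 0.071), the isomerase Rpia (0.064 and -0.10, at 5.26 to 5.72 CPM in the group means) and the transaldolase Taldo1 (-0.02 and -0.0036) did not pass in Lsg1 siRNA or scramble cells.

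The 3 cytosolic enzymes with matrix counterparts differed among themselves. Aco1, the cytosolic aconitase that doubles as an iron-regulatory protein, had 57.3, 59.6 and 58.7 CPM on ER-labelled ribosomes with Lsg1 siRNA and 59.7, 63.8 and 62.2 CPM there with scramble siRNA. Against whole-cell values of 82.7, 85.2 and 82.5 CPM with Lsg1 siRNA and 83.3, 83.1 and 86.4 CPM with scramble siRNA, the log2 folds were -0.51 (SE 0.035) and -0.45 (SE 0.034), both passing. Idh1 (ENSMUSG00000025950.17), the cytosolic NADP-dependent isocitrate dehydrogenase, had 78.3, 79.5 and 73.3 CPM on ER-labelled ribosomes with Lsg1 siRNA and 78.2, 76.5 and 76.2 CPM there with scramble siRNA. Its whole-cell values of 78.5, 73.5 and 69.9 CPM with Lsg1 siRNA overlapped those of the ER-bound libraries, while the 72.1, 70.3 and 73.5 CPM with scramble siRNA lay below them. The log2 folds of 0.059 (edgeR adjusted p = 0.235) and 0.097 (edgeR adjusted p = 0.0554, or 0.0183 with the lysate as a block, which passed) had an SE of 0.042 each.

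Its matrix counterpart Idh2 (ENSMUSG00000030541.17) had 78.8, 76.5 and 73.6 CPM on ER-labelled ribosomes with Lsg1 siRNA and 90.3, 84.2 and 82.4 CPM there with scramble siRNA. In whole-cell RNA it had 82.1, 82.8 and 80.0 CPM with Lsg1 siRNA and 84.5, 83.8 and 80.1 CPM with scramble siRNA. The ER-bound Lsg1 libraries lay below all others, while the ER-bound scramble libraries overlapped the whole-cell ones. The log2 folds were -0.097 (SE 0.039, edgeR adjusted p = 0.0414), lost without any of 3 single Lsg1 siRNA libraries (edgeR adjusted p of 0.0572 to 0.0797) and with library totals (-0.0091), and 0.049 (SE 0.039, edgeR adjusted p = 0.303) in scramble cells.

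The malate dehydrogenases lay close to their whole-cell level in both compartments. Mdh1 (ENSMUSG00000020321.17), cytosolic, had 159.8, 161 and 159 CPM on ER-labelled ribosomes with Lsg1 siRNA and 165, 156 and 159 CPM there with scramble siRNA, against 163, 166 and 163 CPM in whole-cell RNA with Lsg1 siRNA and 159, 161 and 168 CPM there with scramble siRNA. Mdh2 (ENSMUSG00000019179.11), in the matrix, had 373, 389 and 413 CPM on ER-labelled ribosomes with Lsg1 siRNA and 396, 400.3 and 407 CPM there with scramble siRNA, against 378, 389 and 411 CPM in whole-cell RNA with Lsg1 siRNA and 376, 385 and 409.9 CPM there with scramble siRNA. The log2 folds were -0.038 and -0.022 for Mdh1 (SE 0.031 each) and -0.003 and 0.04 for Mdh2 (SE 0.04 each), and none of the 4 passed. Removing the GC and length trend brought them to -0.13 and -0.11 for Mdh1 and to -0.25 and -0.21 for Mdh2, all of which passed.

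**Figure D2:**
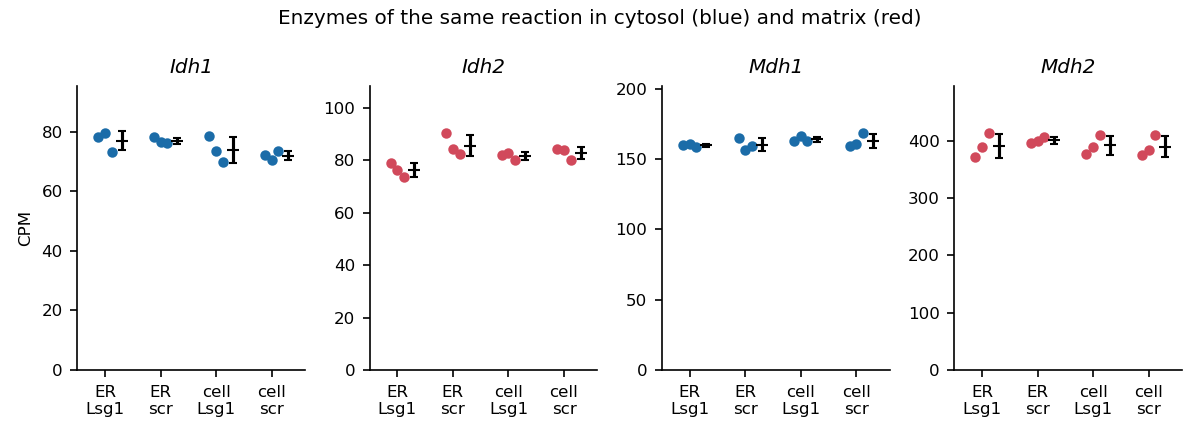
CPM (axes from 0) of the NADP-dependent isocitrate dehydrogenases and the malate dehydrogenases in each library (points), by group, with the mean and SD of 3 replicates beside them (black); scr, scramble siRNA; cell, whole-cell RNA. The levels differ little between groups, and Idh2 is lowest in ER-bound RNA with Lsg1 siRNA, at 73.6 to 78.8 CPM.

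All 4 enzymes of the pyruvate dehydrogenase complex lay below their whole-cell level. In Lsg1 siRNA cells all 4 were called lower, and in scramble cells 3 were, Pdhb, the E1 beta subunit, not passing at -0.032. Its call in Lsg1 siRNA cells (-0.11) ended with library totals, at -0.023. Dlat (ENSMUSG00000000168.11), the E2 acetyltransferase core, had 111, 108 and 106 CPM on ER-labelled ribosomes with Lsg1 siRNA and 112, 113 and 108 CPM there with scramble siRNA. Its whole-cell values were 140.3, 139 and 143 CPM with Lsg1 siRNA and 141, 144 and 139 CPM with scramble siRNA, all above the ER-bound ones. The log2 folds were -0.38 and -0.35 (SE 0.031 each, edgeR adjusted p = 6.9e-09 and 2e-08).

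Dld (ENSMUSG00000020664.11), the E3 dehydrogenase that the complex shares with the 2-oxoglutarate dehydrogenase complex, had 132, 133 and 129.9 CPM on ER-labelled ribosomes with Lsg1 siRNA and 133, 131 and 134 CPM there with scramble siRNA, against 157, 153 and 146 CPM in whole-cell RNA with Lsg1 siRNA and 151, 150.5 and 148 CPM there with scramble siRNA. The fractions did not overlap, with log2 folds of -0.21 and -0.18 (SE 0.031 each, edgeR adjusted p = 9.4e-06 and 6.6e-05). Pdha1 (ENSMUSG00000031299.11), the E1 alpha subunit that pyruvate dehydrogenase kinases phosphorylate, had 338, 325 and 322 CPM on ER-labelled ribosomes with Lsg1 siRNA and 341, 331 and 331 CPM there with scramble siRNA. In whole-cell RNA it had 368, 363 and 357 CPM with Lsg1 siRNA and 356, 362 and 371 CPM with scramble siRNA. Its log2 folds of -0.14 and -0.12 (SE 0.028 each, edgeR adjusted p = 0.00024 and 0.00126) came to -0.056 and -0.042 with library totals, where they no longer passed.

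In the TCA cycle the lowest ratios were those of Ogdh and Dlst, subunits of the 2-oxoglutarate dehydrogenase complex. Of the 11 enzymes, 8 were lower and 1 higher in Lsg1 siRNA cells, and 4 were lower and 1 higher in scramble cells, with median log2 folds of -0.14 and -0.061. Ogdh (ENSMUSG00000020456.18), the E1 subunit of that complex and the largest enzyme among the 41, had 109, 113 and 110.2 CPM on ER-labelled ribosomes with Lsg1 siRNA and 112, 113 and 119.6 CPM there with scramble siRNA. Its whole-cell values were 171, 171 and 179 CPM with Lsg1 siRNA and 166, 169 and 177 CPM with scramble siRNA. The gap between the fractions was wider than their whole spread, with log2 folds of -0.65 and -0.57 (SE 0.035 each, edgeR adjusted p = 2.2e-11 and 1.3e-10).

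Dlst (ENSMUSG00000004789.11), the E2 succinyltransferase of the same complex, had 143, 141 and 137 CPM on ER-labelled ribosomes with Lsg1 siRNA and 138, 136 and 140.5 CPM there with scramble siRNA, against 168, 169 and 162 CPM in whole-cell RNA with Lsg1 siRNA and 157, 159 and 163 CPM there with scramble siRNA. Its fractions did not overlap either, with log2 folds of -0.25 and -0.21 (SE 0.03 each, edgeR adjusted p = 9.8e-07 and 8.4e-06). Fumarase (Fh1) fell by 0.22 and 0.14 and the succinyl-CoA ligase subunit Suclg1 by 0.15 and 0.12 on the log2 scale. With library totals both calls in scramble cells ended, at -0.065 and -0.038, and so did that of Suclg1 in Lsg1 siRNA cells, at -0.065.

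Idh3b (ENSMUSG00000027406.14), a subunit of the NAD-dependent isocitrate dehydrogenase, was the matrix enzyme that rose. It had 133, 128 and 132 CPM on ER-labelled ribosomes with Lsg1 siRNA and 129.6, 128 and 133 CPM there with scramble siRNA, against 117, 121 and 117 CPM in whole-cell RNA with Lsg1 siRNA and 115, 116 and 117 CPM there with scramble siRNA. Its log2 folds of 0.14 and 0.16 (SE 0.03 each, edgeR adjusted p = 0.00044 and 0.00015) turned to -0.049 and -0.041 and did not pass once the GC and length trend was removed. Of the other subunits of the same enzyme, the catalytic Idh3a had log2 folds of -0.14, which passed, and -0.064, which did not, and Idh3g had -0.06 and 0.054, of which neither passed. With the offset, all 4 of these values passed as lower, at -0.21 and -0.13 for Idh3a and -0.26 and -0.16 for Idh3g. The subunits were not tested against each other. Citrate synthase (Cs) and the ATP-forming succinyl-CoA ligase subunit Sucla2 were called lower in Lsg1 siRNA cells, at -0.14 and -0.17, and did not pass in scramble cells, at -0.019 and -0.061. With library totals the calls of Idh3a, Cs and Sucla2 in Lsg1 siRNA cells ended, at -0.052, -0.049 and -0.083.

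Set side by side, matrix and cytosolic enzymes did not separate in the same direction across lysates. In Lsg1 siRNA cells, 12 of 15 matrix enzymes were lower and 1 higher, and 17 of 26 cytosolic enzymes were lower and 1 higher. In scramble cells, 7 of 15 matrix enzymes were lower and 1 higher, and 14 of 26 cytosolic enzymes were lower and 1 higher. The median log2 ratio of the matrix enzymes minus that of the cytosolic ones was 0.0079, -0.055 and -0.032 in the 3 lysates with Lsg1 siRNA and -0.0091, 0.043 and 0.016 in the 3 with scramble siRNA. Both signs occurred within each siRNA group. With the offset for GC content and length, the difference of the fitted medians came from -0.029 to 0.080 in Lsg1 siRNA cells and from 0.033 to 0.13 in scramble cells, while both compartments stayed below 0, with matrix medians of -0.25 and -0.16 and cytosolic medians of -0.33 and -0.29. With library totals, the matrix medians were -0.056 and 0.014 and the cytosolic ones -0.027 and -0.019, where the median of all genes was 0.11 in both.

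Summed over a pathway, the largest part of these mRNAs was glycolytic. The 16 glycolytic enzymes summed to 16569 ± 179.5 CPM on ER-labelled ribosomes with Lsg1 siRNA (SD, n = 3) and to 17435 ± 187 CPM there with scramble siRNA, against 18959 ± 299 CPM in whole-cell RNA with Lsg1 siRNA and 19100.4 ± 622 CPM there with scramble siRNA. The 15 matrix enzymes summed to 2442 ± 7.87 CPM and 2544.5 ± 17.5 CPM on ER-labelled ribosomes with Lsg1 and scramble siRNA, and to 2715 ± 7.95 CPM and 2705 ± 62.5 CPM in whole-cell RNA. The 7 pentose phosphate enzymes summed to 1273 ± 8.91 CPM and 1272 ± 17.7 CPM on ER-labelled ribosomes with Lsg1 and scramble siRNA, and to 1222 ± 10.3 CPM and 1226 ± 28.8 CPM in whole-cell RNA. The ER-bound sums lay below the whole-cell ones without overlap for glycolysis and for the matrix enzymes, while the pentose phosphate sums lay above the whole-cell ones without overlap with Lsg1 siRNA and overlapped with scramble siRNA. Of the pentose phosphate sums with Lsg1 siRNA, Tkt alone made up 660 CPM on ER-labelled ribosomes and 580 CPM in whole-cell RNA. It was the 1 of the 7 called higher there, and 2 were called lower. These sums were not tested.

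Enzymes with long coding regions tended to have low ratios, with exceptions on both sides. All 9 with at least 600 codons passed in both siRNA groups, 8 of them lower: Hk1, Hk2, Pfkl, Pfkm, Pfkp, Aco1, Dlat and Ogdh, while Tkt was higher. The shorter Aldoc lay below 5 of these 8 in Lsg1 siRNA cells, and Pkm, Pgk1 and G6pdx lay below Pfkm there. Their median log2 fold was -0.49 in Lsg1 siRNA cells and -0.45 in scramble cells, and that of the other 32 was -0.11 and -0.063. Of these 32, 21 were lower, 1 higher and 10 did not pass in Lsg1 siRNA cells, and 13 were lower, 1 higher and 18 did not pass in scramble cells. Across the 41 genes, the log2 fold and the log2 number of codons had a Pearson r of -0.69 (Spearman rho -0.62) in Lsg1 siRNA cells and of -0.68 (rho -0.54) in scramble cells. Against transcript length, r was -0.69 and -0.73 over the 41 (rho -0.63 and -0.68), and -0.16 and -0.20 over the 17652 tested genes with a length (rho -0.30 and -0.33). Within the matrix enzymes (n = 15) r against codons was -0.88 and -0.84 (rho -0.71 and -0.59). Within the cytosolic ones (n = 26) it was -0.64 and -0.64 (rho -0.57 and -0.55). With the offset for GC content and length, r over the 41 was -0.56 and -0.53 against codons (rho -0.50 and -0.39) and -0.37 and -0.37 against transcript length (rho -0.34 and -0.31). These are descriptions across genes that share the same libraries and are not independent replicates, and the limit of 600 codons was chosen after the values were seen. The part of transcript length, RNA fragmentation or purification in these ratios was not tested.

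**Figure D3:**
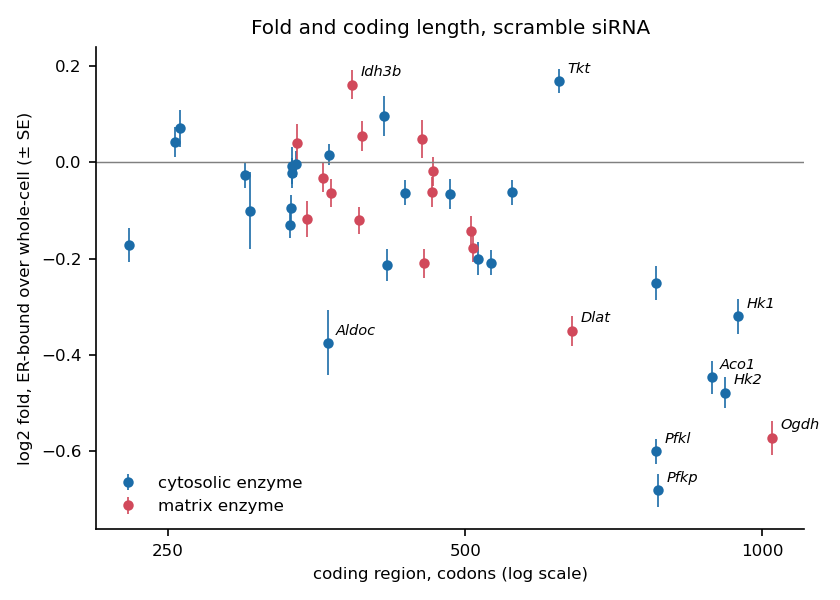
Log2 fold of ER-bound over whole-cell RNA in scramble cells (± SE from the edgeR fit) against the length of the coding region in codons (log scale) for the 41 enzymes, coloured by compartment. Enzymes with over 600 codons lie at -0.25 to -0.68, apart from Tkt at 0.17, and Aldoc is the shorter one that lies lowest, at -0.38.

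The balance of isozymes is given as each one's share of the summed level of its set, in CPM per kilobase of transcript, and these shares were not tested. Aldoa made up over 99% of the aldolase level (99.7% ± 0.024 on ER-labelled ribosomes with Lsg1 siRNA and 99.6% ± 0.020 in whole-cell RNA with scramble siRNA), and Ldha 90.7% to 91.4% of the lactate dehydrogenase level in the group means. Hk2 held 70.9% ± 0.48 and 70.4% ± 0.73 of the hexokinase level on ER-labelled ribosomes with Lsg1 and scramble siRNA, and 72.3% ± 0.16 and 72.7% ± 0.52 in whole-cell RNA. Mdh2 held 78.1% ± 0.97 and 78.5% ± 0.65 of the malate dehydrogenase level on ER-labelled ribosomes with Lsg1 and scramble siRNA, and 77.7% ± 0.80 and 77.7% ± 0.28 in whole-cell RNA. Among phosphofructokinases, Pfkm held 12.3% ± 0.47 and 11.2% ± 0.18 on ER-labelled ribosomes with Lsg1 and scramble siRNA, and 9.14% ± 0.16 and 8.77% ± 0.15 in whole-cell RNA. This shift followed from the smaller reduction of Pfkm than of Pfkl and Pfkp given above. Per kilobase, the whole-cell levels in scramble cells were highest for Gapdh (2589.5 CPM per kb), Pkm (1885), Aldoa (1456), Eno1 (1175) and Ldha (1156), and lowest for Rpia (3.12) and Aldoc (6.26). In the matrix the highest was Mdh2 (268 CPM per kb) and the lowest Dlat (35.0).

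Other lists, of ER chaperones and of carbon metabolism, were set beside the 41. Of 10 chaperones of the ER lumen, all were higher on ER-labelled ribosomes in both siRNA groups, with median log2 folds of 0.94 in Lsg1 siRNA cells and 0.91 in scramble cells; the disulfide isomerase Pdia3 had 1.20 and 1.08, the co-chaperone Dnajb11 1.15 and 1.09 and calreticulin (Calr) 0.99 and 0.99. Of 10 carriers of glucose, lactate and pyruvate, 8 were higher and 1 lower in Lsg1 siRNA cells and 7 higher and 1 lower in scramble cells. Bsg, the membrane chaperone of the monocarboxylate transporters, had 749, 705 and 698 CPM on ER-labelled ribosomes with Lsg1 siRNA and 706, 624 and 628 CPM there with scramble siRNA, against 290.3, 288 and 298 CPM in whole-cell RNA with Lsg1 siRNA and 287, 285 and 292 CPM there with scramble siRNA. The lactate transporter Slc16a1 had log2 folds of 0.52 and 0.38, and Mpc2, a subunit of the mitochondrial pyruvate carrier of the inner membrane, 0.61 (SE 0.048) and 0.69 (SE 0.048).

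The ER lumen holds its own enzyme for the first steps of the pentose phosphate pathway, and its mRNA rose while that of the cytosolic one fell. H6pd (ENSMUSG00000028980.15), which oxidises glucose 6-phosphate in the ER lumen, had 35.7, 34.1 and 32.8 CPM on ER-labelled ribosomes with Lsg1 siRNA and 32.9, 31.9 and 31.8 CPM there with scramble siRNA. Its whole-cell values were 19.1, 19.2 and 20.1 CPM with Lsg1 siRNA and 18.6, 19.6 and 20.0 CPM with scramble siRNA. The log2 folds were 0.82 (SE 0.044, edgeR adjusted p = 1.7e-11) and 0.73 (SE 0.044, edgeR adjusted p = 9.8e-11), where the cytosolic G6pdx had -0.26 and -0.20. G6pc3, a glucose 6-phosphatase of the ER membrane, had log2 folds of 0.77 and 0.72, and Slc37a4, the glucose 6-phosphate transporter of the same membrane, 0.18 and 0.42. Of the 5 ER sugar genes, 3 were higher and 1 lower in each siRNA group. The lower one was Pgm3, whose product is a cytosolic mutase of hexosamine synthesis. In Lsg1 siRNA cells 4 of the 5 had a positive log2 fold, and 1 of these did not pass. In scramble cells 3 had a positive log2 fold. The fifth gene, not named here, was negative there and did not pass. These genes stood at 4.70 to 44.9 CPM in the group means, so they are rarer than most of the 41.

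The counts of the further lists are to be read against the 30.6% higher and 29.8% lower of all tested genes in Lsg1 siRNA cells and the 29.8% higher and 29.1% lower in scramble cells, and several lie near these shares. Of 18 tested further glycolytic isozymes and regulators, 5 were higher and 4 lower in Lsg1 siRNA cells and 4 higher and 3 lower in scramble cells. Adpgk, an ADP-dependent glucokinase found at the ER, had log2 folds of 0.45 and 0.37, the fructose bisphosphatase Fbp2 0.77 and 1.05 at under 6 CPM, and Pfkfb3, which makes the allosteric activator of phosphofructokinase, -0.32 and -0.34. Of 9 further pentose phosphate genes, 1 was higher and 4 lower in each siRNA group; the aldolase Dera had 0.34 and 0.31, the ribose phosphate kinase Prps2 -0.22 and -0.39 and the phosphoglucomutase Pgm1 -0.57 and -0.46. Of 21 tested further matrix enzymes, 12 were lower and 1 higher in Lsg1 siRNA cells and 11 lower and 1 higher in scramble cells, with medians of -0.25 in both. The pyruvate dehydrogenase phosphatase regulator Pdpr had -0.72 and -0.71 and the mitochondrial phosphoenolpyruvate carboxykinase Pck2 -0.53 and -0.45. Of 8 tested further cytosolic enzymes, 3 were lower and 0 higher in each siRNA group: the ATP citrate lyase Acly (-0.54 and -0.44), Gpd1l (-0.45 and -0.26) and the aspartate aminotransferase Got1 (-0.17 and -0.093). Of 12 targets of the hypoxia-inducible factor outside glycolysis, 3 were higher and 5 lower in Lsg1 siRNA cells and 4 higher and 5 lower in scramble cells, among them the prolyl hydroxylases of ER collagen folding P4ha1 (0.61 and 0.55) and P4ha2 (0.62 and 0.62) and the oxygen sensor Egln1 (-0.26 and -0.33).

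**Figure D4:**
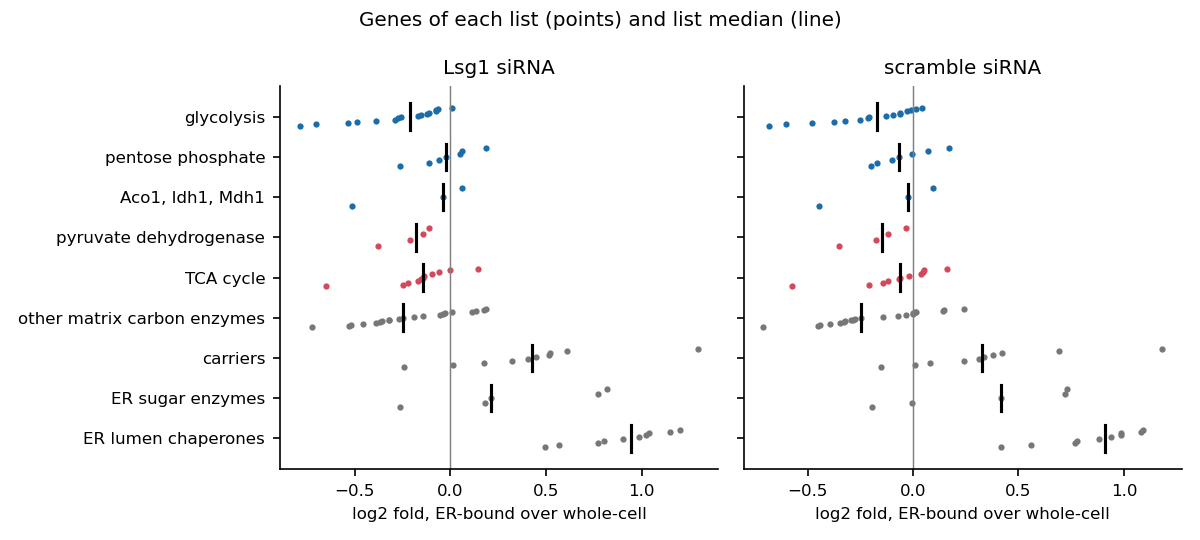
Log2 fold of ER-bound over whole-cell RNA for each tested gene (points) of 9 lists, with the list median (line), in Lsg1 siRNA cells (left) and scramble siRNA cells (right); blue, the cytosolic enzymes described here, red, the matrix ones, grey, other lists. The blue and red lists have medians below 0, and the chaperones of the ER lumen have medians of 0.94 and 0.91.

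Lsg1 siRNA lowered 6 of the 41 enzymes in ER-bound RNA and raised none, by small amounts. Those called lower were the glycolytic Pfkl, Pfkp and Aldoa and the TCA cycle's Cs, Idh2 and Sucla2, in a comparison in which 2.63% of all tested genes were called higher and 1.38% lower, 4.01% in all. Of the 41, 34 had a negative log2 fold and 18 had an unadjusted p under 0.05, with a median of -0.051 where the median of all tested genes was 0.0087. Over all 17702 tested genes, 3047 had an unadjusted p under 0.05, and those with a negative log2 fold were not counted. The 8 embryonic stem cell markers had a median of -0.065 in the same comparison, with 1 positive, 6 at an unadjusted p under 0.05 and 2 called lower, and the 12 targets of the hypoxia-inducible factor outside glycolysis had a median of -0.085. The part of these shifts in the result was not tested. Of the 16 glycolytic enzymes 15 were negative (median -0.073), as were 9 of 11 TCA cycle enzymes (median -0.060), all 4 of the pyruvate dehydrogenase complex (median -0.030) and 4 of 7 pentose phosphate enzymes (median -0.00078). In 18 of the 41, every Lsg1 siRNA library lay below every scramble library, and in 1 every one lay above. How many of all tested genes separate in this way was not counted, so whether these counts are unusual is not known.

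Cs (ENSMUSG00000005683.9), citrate synthase, which opens the TCA cycle, had 264, 264 and 265 CPM on ER-labelled ribosomes with Lsg1 siRNA and 294, 293 and 302 CPM there with scramble siRNA. The groups did not overlap, and Cs fell by 0.17 on the log2 scale (SE 0.03, edgeR adjusted p = 0.00431), a call that held under all alternatives tried. In whole-cell RNA Cs had 284, 290.2 and 297 CPM with Lsg1 siRNA and 295, 292 and 313 CPM with scramble siRNA, which overlapped (log2 fold -0.047, edgeR adjusted p = 1.00). Pfkp, with the values per library given above, fell by 0.17 (SE 0.035, edgeR adjusted p = 0.00875) on the log2 scale in ER-bound RNA. Aldoa (ENSMUSG00000030695.17), the main aldolase, had 2129.8, 2117 and 2139.7 CPM on ER-labelled ribosomes with Lsg1 siRNA and 2326, 2236 and 2278 CPM there with scramble siRNA, and fell by 0.099 on the log2 scale (SE 0.022, edgeR adjusted p = 0.0142). Its whole-cell values of 2238, 2188 and 2245 CPM with Lsg1 siRNA and 2215, 2247 and 2304 CPM with scramble siRNA overlapped.

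Idh2 fell by 0.17 on the log2 scale (SE 0.039, edgeR adjusted p = 0.0222) in ER-bound RNA, Sucla2 by 0.12 (SE 0.031, edgeR adjusted p = 0.0319) and Pfkl by 0.11 (SE 0.026, edgeR adjusted p = 0.0216). Idh1, which catalyses the same reaction in the cytosol as Idh2, did not pass, at 0.0015 (SE 0.042). Idh2 held 56.6% ± 0.62 of the NADP-dependent isocitrate dehydrogenase level per kilobase on ER-labelled ribosomes with Lsg1 siRNA and 59.5% ± 0.81 there with scramble siRNA, and 59.3% ± 1.16 and 60.3% ± 1.13 in whole-cell RNA. Without ER-bound Lsg1 replicate 2, the calls of Pfkl, Pfkp, Aldoa, Idh2 and Sucla2 were all lost (edgeR adjusted p of 0.0634 to 0.11). Without ER-bound Lsg1 replicate 1 or 3, or single ER-bound scramble libraries, between 1 and 3 of Pfkl, Aldoa, Idh2 and Sucla2 were lost, and without the 2 libraries that stand apart Pfkl and Aldoa were. Sucla2 was also lost with library totals (edgeR adjusted p = 0.068). With only the groups compared, Pfkl, Idh2 and Sucla2 were lost (edgeR adjusted p of 0.0553, 0.0666 and 0.0597).

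Calls in ER-bound RNA with Lsg1 siRNA in the other lists went both ways. The ribose phosphate kinase Prps2 was higher (0.22, edgeR adjusted p = 0.00127), as were the lactate transporter Slc16a1 (0.13, edgeR adjusted p = 0.0426) and Pdia3 (0.12, edgeR adjusted p = 0.032), each the single call of its list. Acly (-0.12, edgeR adjusted p = 0.0288) and Got1 (-0.11, edgeR adjusted p = 0.0488) were lower, as were 1 of 21 further matrix enzymes and 1 of 12 targets of the hypoxia-inducible factor, Bnip3l (-0.19, edgeR adjusted p = 0.00402), a receptor for mitophagy. Of the 8 embryonic stem cell markers, 2 were lower, Nanog (-0.18, edgeR adjusted p = 0.0298) and Dppa5a (-0.11, edgeR adjusted p = 0.0361).

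In whole-cell RNA none of the 41 enzymes passed with Lsg1 siRNA. Their median log2 fold was -0.0065, 16 of 41 were positive, and the largest in size, Rpia, stood at -0.11 (SE 0.081). The smallest unadjusted p among them belonged to Dlst (0.06, SE 0.03), Pfkp (-0.066, SE 0.034) and Cs (-0.047, SE 0.03), each with an edgeR adjusted p of 1.00, and in none of the 41 did the groups separate without overlap. Over all tested genes edgeR called 0, or 0%, higher or lower in this comparison, with 731 at an unadjusted p under 0.05 and none of them among the 41. DESeq2 called 0 of the 41 as well, and 5 over all genes.

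**Figure D5:**
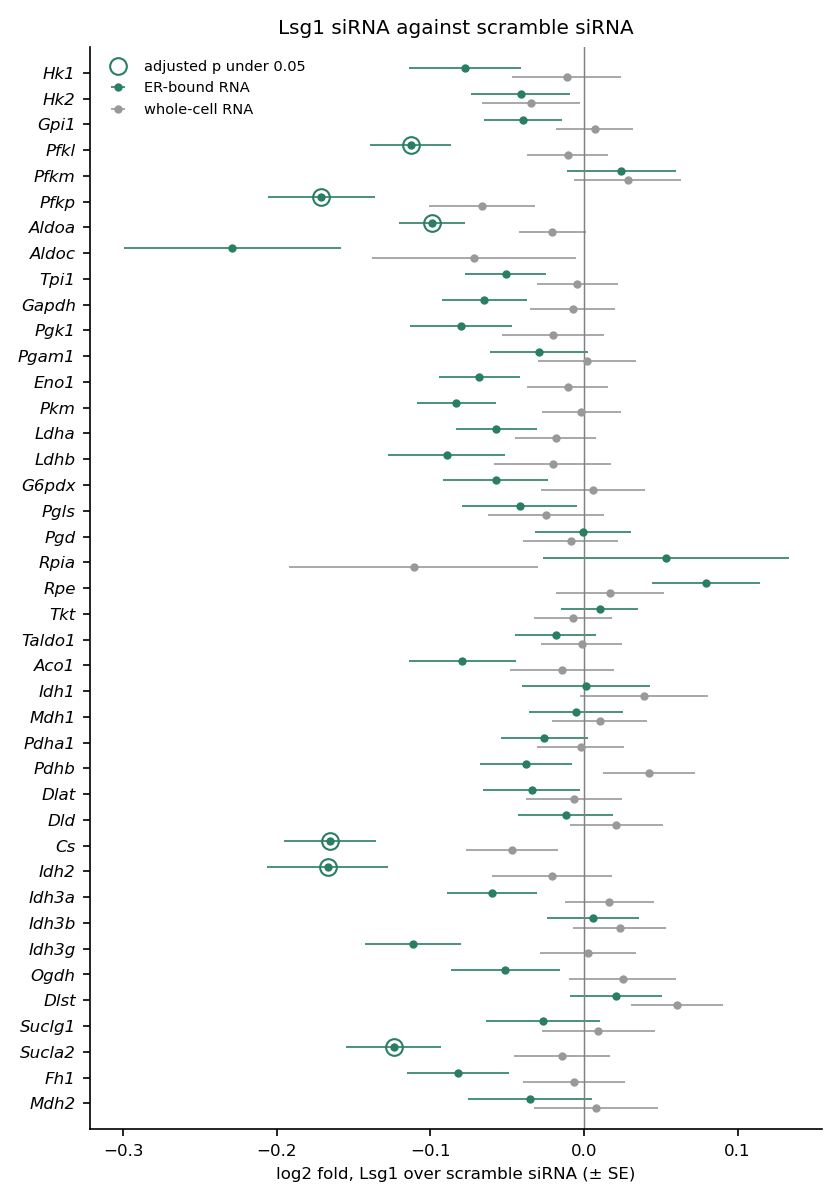
Log2 fold of Lsg1 over scramble siRNA (± SE from the edgeR fit) for the 41 enzymes in ER-bound RNA (green) and whole-cell RNA (grey); rings mark an adjusted p under 0.05. The 6 ringed enzymes lie between -0.17 and -0.099, and the whole-cell values lie between -0.11 and 0.060.

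Whether the siRNA effect differed between the fractions was tested by the interaction, and none of the 41 passed. Over all tested genes 4 were called, 0.0113% higher, 0.0113% lower and 0.0226% in all, with 1219 at an unadjusted p under 0.05, of which 8 were among the 41. The smallest p values of the 41 were those of Cs (-0.12, SE 0.043, edgeR adjusted p = 0.606), Pfkl (-0.10, SE 0.037, edgeR adjusted p = 0.618) and Idh2 (-0.15, SE 0.056, edgeR adjusted p = 0.634). The interaction was negative for 37 of the 41, for all 15 matrix enzymes and for 22 of 26 cytosolic ones, with a median of -0.047 where that of all tested genes was 0.0043. How many of all tested genes had a negative interaction was not counted, so whether these counts are unusual is not known. The fall of 6 enzymes in ER-bound RNA was therefore not shown to differ from the whole-cell values of the same genes.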

How the data were processed

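Raw read counts per gene, 1 table for each of the 12 libraries, were deposited by the authors. The submitters' processing notes name STAR 2.7.9a, HTSeq 0.11.2, DESeq2 and the GRCm39 build. Neither the annotation release nor the strand setting of the counting is given in the sources used here, so reads of overlapping and antisense genes cannot be told apart. Per the labels' protocols, libraries were directional, poly-A selected and amplified by PCR. No molecular identifiers are mentioned there. Gene totals ran from 38092178 to 56522114 reads. The part of counting error in the spread between replicates was not tested. The 5 summary lines of each table (no feature 2.65% to 5.26% of reads, several places 6.09% to 8.23%, ambiguous 0.970% to 1.16%) were left out.

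Gene names, lengths, GC content and coding sequences came from GENCODE M21 on GRCm38, matched by ID without version, which named 52083 of 55416 IDs (94.0%) with 99.5% of reads. Counts were scaled by TMM and tested in edgeR 4.0.16 (R 4.3.3) with the quasi-likelihood F-test on all 12 libraries, with 1 mean per group. The filter was filterByExpr (17702 genes), with 8 residual degrees of freedom and a biological coefficient of variation of 4.42%. Benjamini-Hochberg adjustment at 0.05 ran over all genes tested. A prior count of 2 was used for the log CPM behind the GC and length trend and the correlations between libraries, not in the test. Fractions were compared within each siRNA, siRNAs within each fraction, and the interaction was tested. In counts simulated for Lsg1 against scramble siRNA in ER-bound RNA, with 200 of 17702 genes changed, the test found 100% of 2-fold and 86% of 1.5-fold changes; most differences among the 41 are smaller. Levels per kilobase divide CPM by the length of the longest coding transcript. Figures were drawn with matplotlib 3.10.9.

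All 41 genes could be named. Values per library were given for both compartment pairs, for Gapdh, for the 3 genes with the smallest p of each pathway in the scramble fraction comparison and for the 3 with the smallest p in each siRNA comparison and the interaction; Aco1, H6pd and Bsg were added after their values were seen. Of the other lists, up to 3 genes with the smallest p in the scramble fraction comparison were named, and Pgm3 as the lower member of its list; 1 gene that this rule named among the further matrix enzymes is not reported here. The 41 genes, the lists and the tests were chosen with earlier results of these data known. Fractions were paired through shared lysates, as the series text states; deviations from group means of libraries from 1 lysate correlated with r of 0.0024 to 0.14. The p-values measure the spread between biological replicates as labelled. The 22 alternatives were library totals, DESeq2's size factors, a filter of 2 CPM in 3 libraries, no filter, DESeq2 1.42.0, only the groups compared, a replicate block (the lysate between fractions and for the interaction, the replicate number between siRNAs), an offset for length and GC content (splines, 5 degrees of freedom), both together, leaving out the 2 libraries that stand apart, and leaving out each of the 12 libraries.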

Additional observations from a re-analysis of the deposited data

How the results depend on the processing

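The low ratios of the long-coding enzymes (Hk1, Hk2, Pfkl, Pfkm, Pfkp, Aco1, Dlat and Ogdh) kept their direction and their call under all 22 alternatives in both siRNA groups. So did those of the shorter Aldoc, Pgk1, Pkm, G6pdx, Dld and Dlst, so this was not particular to long coding regions. Counts of enzymes near 0 depended on the scaling, and the cause was not tested. With library totals alone, 5 matrix enzymes were lower and 5 cytosolic ones higher in Lsg1 siRNA cells, and 4 matrix enzymes were higher, 4 lower and 6 cytosolic ones higher in scramble cells. With the offset for GC content and length, with or without the replicate block, 0 matrix enzymes were higher in either siRNA group; in scramble cells 14 matrix and 23 cytosolic enzymes were lower and 0 cytosolic ones higher. Cytosolic enzymes called higher were 2 with the block and offset in Lsg1 siRNA cells (Rpe and Tkt), and in scramble cells 2 with the stricter filter and 2 with the replicate block, Tkt and Idh1 each time.

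The 29 single values that reversed did so under library totals or the offset. With library totals, the log2 folds in Lsg1 siRNA cells were 0.026 for Aldoa, 0.015 for Tpi1 and 0.068 for Taldo1, and in scramble cells 0.016 for Gpi1 and 0.075 for Taldo1. With the offset, and with the block and offset, they were in Lsg1 siRNA cells -0.191 and -0.190 for Pgam1, -0.154 and -0.154 for Pgls, 0.104 and 0.105 for Rpe, and -0.0493 and -0.0495 for Idh3b. In scramble cells they were -0.240 and -0.240 for Aldoa, -0.167 and -0.166 for Pgam1, -0.205 and -0.205 for Pgls, 0.0378 and 0.0387 for Rpe, -0.190 and -0.191 for Idh2, -0.0413 and -0.0412 for Idh3b, -0.155 and -0.154 for Idh3g, and -0.210 and -0.209 for Mdh2.

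For Lsg1 against scramble siRNA in ER-bound RNA, 1 matrix enzyme was lower with only the groups compared, and 1 cytosolic one without the 2 libraries that stand apart. With replicate number as a block, 6 cytosolic enzymes were lower, and 8 with block and offset; all genes called came to 1178 and 1546, against 710 without the block and 375 with only the groups compared. The number was not taken as a pairing there, since shared lysates link the fractions and not the siRNAs. Deviations of same-numbered ER-bound libraries correlated with r of 0.17, 0.0073 and 0.14 (whole-cell 0.037, 0.039 and 0.097). Libraries from the same lysate correlated with r of 0.0024 to 0.14, so these values do not decide the choice. In the fraction comparisons, where lysates pair the libraries, the block also passed Ldhb with Lsg1 siRNA and Eno1 with scramble siRNA, both lower. Leaving out 1 library gave 1 to 4 matrix and 0 to 4 cytosolic enzymes lower in ER-bound RNA with Lsg1 siRNA, lowest without ER-bound Lsg1 replicate 2, and 1 to 2 cytosolic enzymes higher on ER-labelled ribosomes in Lsg1 siRNA cells. In whole-cell RNA and for the interaction, none of the 41 passed under any alternative. Rpia and Aldoc had the largest SE of the 41 in the comparisons between fractions, at 0.068 to 0.081. The part of depth in this was not tested.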
